A study of Mus musculus with 13 samples.

Results

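Of the 7384 OLIG2 called peaks listed for oligodendrocyte precursor cells (OPCs), 5154 (69.8%) did not overlap, by even 1 bp, an OLIG2 peak of newly formed oligodendrocytes (NFOs), an H3K4me3 peak of OPCs or an H3K27me3 peak of OPCs. These 5154 peaks, the OPC-only peaks without either mark, were chosen by their overlaps, so the absence of those 3 kinds of peak is how they were chosen and is no finding. The remaining 2230 peaks comprised 1059 shared with NFOs, 631 found only in OPCs and overlapping OPC H3K4me3, and 633 found only in OPCs and overlapping OPC H3K27me3, of which 93 overlapped both marks.

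The series held 13 libraries with 1 library per condition, so every value here describes single libraries, no test was possible, and the 95% exact binomial (Clopper-Pearson) intervals cover counting error only. OPCs and NFOs were immunopanned from brains of untreated C57BL/6 mice at postnatal day 7, with selection for PDGFRα and then for galactocerebroside, and neural stem cells (NSCs) were purchased, cultured cells from embryonic cortex, whose strain was given as C57BL/6 in the sample labels and as CD-1 in the growth protocol. Stage, age and source of the cells thus cannot be told apart between NSCs and the other cells. OLIG2 chromatin immunoprecipitation with sequencing (ChIP-Seq) was listed for OPCs and NFOs, and H3K4me3 and H3K27me3 ChIP-Seq for NSCs, OPCs and NFOs. The antibody field of the labels named the opposite histone mark to the titles. The titles were used, and 73.6% of the OPC list titled H3K4me3 lay within 1 kb of a transcription start site (TSS) against 14.8% of the list titled H3K27me3. As a check on the cells, OPC H3K4me3 lay within 2 kb of the TSS of 28 of 30 OPC identity genes, 9 of 16 astrocyte genes, 14 of 20 neuron genes, 7 of 16 endothelial genes and 2 of 16 microglia genes. Over all protein-coding genes the share was 60.8% (13335 of 21938). It also lay at 29 of 29 neural stem cell genes, 17 of them with H3K27me3, so the check does not set OPCs apart from these. Within the same distance, H3K27me3 lay at 15 of the 20 neuron genes, and H3K4me3 alone at 0 of the 16 endothelial genes.

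OLIG2 is a basic helix-loop-helix transcription factor that binds DNA as a dimer at E-boxes, the short palindrome-like sequence CANNTG, and is needed to specify the oligodendrocyte lineage and to carry OPCs through differentiation. H3K4me3 marks the start sites of active or poised genes, and H3K27me3 is deposited by Polycomb repressive complex 2 at silenced genes. OLIG2 is also known to occupy enhancers away from start sites, where H3K4me3 is usually low, and enhancer marks were not measured in this series.

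The sequences of the strongest peaks are shown first because 2 features in them, E-boxes and runs of A or T, recur throughout the values that follow. Fold enrichment is the signal over the control as the peak caller gave it. The 10 OPC-only peaks without either mark with the highest fold enrichment are printed from the mm10 reference, plus strand, in order of fold enrichment, each named for its nearest protein-coding gene. Capitals mark every CANNTG and every run of 12 or more A or of 12 or more T.
Ccser2, chr14:36502117-36502284: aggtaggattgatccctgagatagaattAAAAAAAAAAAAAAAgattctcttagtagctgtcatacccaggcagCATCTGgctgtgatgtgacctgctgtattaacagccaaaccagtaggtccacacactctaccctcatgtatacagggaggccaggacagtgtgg
Frem1, chr4:82946447-82946594: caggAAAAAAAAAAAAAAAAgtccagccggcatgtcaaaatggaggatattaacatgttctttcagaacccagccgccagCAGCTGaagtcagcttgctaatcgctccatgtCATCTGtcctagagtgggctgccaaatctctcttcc
Fam19a2, chr10:123597273-123597397: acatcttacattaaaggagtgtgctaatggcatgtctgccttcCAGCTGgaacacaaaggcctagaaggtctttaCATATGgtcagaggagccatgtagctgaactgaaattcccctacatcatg
Zfp36l1, chr12:79936903-79936960: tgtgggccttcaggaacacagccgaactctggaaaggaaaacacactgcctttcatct
Cadm2, chr16:67871855-67871940: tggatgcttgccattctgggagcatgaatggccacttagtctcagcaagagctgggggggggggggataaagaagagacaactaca
Pou3f2, chr4:22564476-22564705: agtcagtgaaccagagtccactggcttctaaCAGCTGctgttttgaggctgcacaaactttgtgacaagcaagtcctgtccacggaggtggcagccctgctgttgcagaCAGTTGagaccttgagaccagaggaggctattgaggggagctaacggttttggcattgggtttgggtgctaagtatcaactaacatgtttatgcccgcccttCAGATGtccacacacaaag
Zfp36l2, chr17:84081731-84081818: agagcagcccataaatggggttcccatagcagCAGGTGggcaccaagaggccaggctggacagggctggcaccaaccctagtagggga
She, chr3:89858960-89859189: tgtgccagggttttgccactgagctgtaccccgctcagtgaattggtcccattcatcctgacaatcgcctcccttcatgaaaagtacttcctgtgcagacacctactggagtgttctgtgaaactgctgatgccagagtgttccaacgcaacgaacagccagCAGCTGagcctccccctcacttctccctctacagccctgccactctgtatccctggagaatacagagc
Taldo1, chr7:141394840-141395069: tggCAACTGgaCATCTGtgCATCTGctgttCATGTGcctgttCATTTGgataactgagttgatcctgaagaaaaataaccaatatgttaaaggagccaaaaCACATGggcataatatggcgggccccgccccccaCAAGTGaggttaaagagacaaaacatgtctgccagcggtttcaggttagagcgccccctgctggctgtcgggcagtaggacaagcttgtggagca
Cep170b, chr12:112746810-112746893: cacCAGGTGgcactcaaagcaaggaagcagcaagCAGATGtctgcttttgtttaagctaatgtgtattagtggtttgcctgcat

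The strongest peak (fold enrichment 81.7, near Ccser2) lay in distal intergenic sequence 384076 bp from the nearest TSS. The next (70.8) lay in an intron of Frem1, which encodes a basement membrane protein, 5565 bp from its TSS. The peak in an intron of Fam19a2, a gene for a secreted chemokine-like protein, had a fold enrichment of 46.7. The Pou3f2 peak (39.0) lay 76110 bp from the TSS of this neural POU-domain factor and 316 bp from an OPC H3K27me3 peak. The Taldo1 peak (36.5), 2597 bp from the TSS of the gene for the pentose phosphate enzyme transaldolase, held 7 E-boxes, the most among these 10. The peaks named for Zfp36l1 and Zfp36l2, which encode RNA-binding proteins that promote mRNA decay, lay 176034 and 106129 bp from those genes, and the nearest TSSs were those of the lncRNA genes 4933435C09Rik (364 bp) and AC132455.3 (3071 bp). CAGCTG was present in 4 of the 10 (Frem1, Fam19a2, Pou3f2 and She), and 8 of the 10 held no run of A or T. Most of the 10 were narrower than 230 bp, and only runs inside a peak were counted. Of all 84 peaks above 20-fold, 43 (51.2%) held a run.

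The next 8 peaks are the strongest at their genes, all of them known in the oligodendrocyte or neural lineage, and are shown because they include peaks both with and without such runs. Pdgfra (the PDGF receptor that marks OPCs), Cspg5 and Tnr (extracellular matrix proteins) and Ncald (a calcium sensor) are OPC identity genes, and Myt1l, St18, Sox6 and Nfia encode transcription factors that act in the differentiation of neural cells or glia.
Pdgfra, chr5:75167464-75167693: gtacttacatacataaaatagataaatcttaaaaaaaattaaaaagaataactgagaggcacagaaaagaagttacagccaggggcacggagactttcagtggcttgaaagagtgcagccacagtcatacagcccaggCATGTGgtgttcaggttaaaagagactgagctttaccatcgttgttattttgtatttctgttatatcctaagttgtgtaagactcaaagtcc
Cspg5, chr9:110249807-110250036: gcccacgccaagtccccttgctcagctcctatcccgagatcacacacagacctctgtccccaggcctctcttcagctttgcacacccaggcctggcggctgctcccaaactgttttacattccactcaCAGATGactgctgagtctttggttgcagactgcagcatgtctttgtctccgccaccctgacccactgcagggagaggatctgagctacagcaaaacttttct
Ncald, chr15:37673828-37674057: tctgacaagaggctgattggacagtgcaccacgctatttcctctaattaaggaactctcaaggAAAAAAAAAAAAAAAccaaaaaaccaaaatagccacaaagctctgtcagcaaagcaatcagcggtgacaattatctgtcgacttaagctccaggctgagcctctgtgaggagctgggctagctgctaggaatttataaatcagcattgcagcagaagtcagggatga
Tnr, chr1:159729722-159729951: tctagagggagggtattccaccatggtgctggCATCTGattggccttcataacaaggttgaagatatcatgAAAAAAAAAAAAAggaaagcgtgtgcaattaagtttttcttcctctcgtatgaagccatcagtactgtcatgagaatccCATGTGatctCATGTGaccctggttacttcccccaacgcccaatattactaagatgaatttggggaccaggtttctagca
Myt1l, chr12:29664881-29665110: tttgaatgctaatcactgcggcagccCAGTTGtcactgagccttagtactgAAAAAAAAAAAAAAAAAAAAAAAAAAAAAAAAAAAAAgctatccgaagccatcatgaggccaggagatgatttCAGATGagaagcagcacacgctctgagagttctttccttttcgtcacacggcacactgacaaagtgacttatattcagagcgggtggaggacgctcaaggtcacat
St18, chr1:6616319-6616548: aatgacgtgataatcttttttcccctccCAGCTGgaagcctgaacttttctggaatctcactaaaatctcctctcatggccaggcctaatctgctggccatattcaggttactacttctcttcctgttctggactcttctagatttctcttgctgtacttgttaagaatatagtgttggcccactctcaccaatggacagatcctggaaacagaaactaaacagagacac
Sox6, chr7:115544199-115544428: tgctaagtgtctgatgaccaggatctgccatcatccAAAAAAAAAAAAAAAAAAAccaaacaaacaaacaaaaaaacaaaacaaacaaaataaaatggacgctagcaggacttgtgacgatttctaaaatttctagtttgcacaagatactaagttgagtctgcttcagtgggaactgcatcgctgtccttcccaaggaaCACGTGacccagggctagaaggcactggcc
Nfia, chr4:98040487-98040716: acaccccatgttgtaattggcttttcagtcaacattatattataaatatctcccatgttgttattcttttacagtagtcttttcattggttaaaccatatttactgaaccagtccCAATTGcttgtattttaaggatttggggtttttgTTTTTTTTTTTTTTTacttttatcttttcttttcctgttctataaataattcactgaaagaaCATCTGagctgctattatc

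The runs stood at fixed places. In Ncald, Tnr, Myt1l and Sox6 a run of A lay to the left of the middle of the peak, and in Nfia a run of T lay to the right. Of the 5154 peaks, 3255 (63.2%, interval 61.8 to 64.5%) held a run of 12 or more A or T. Windows of the same length 1 kb to either side held such a run in 3.12% (n = 10308), and windows across the genome that passed the same rule in 2.40%. The summit of each peak was taken from the deposited list. Of 1699 runs of A that lay no farther from a summit than the edge of a full-width peak, 1687 lay before it in plus-strand orientation (median position -60 bp), and of 1674 runs of T, 1664 lay after it (median 58.5 bp). An A run before the summit alone was found in 1626 peaks, a T run after it alone in 1610, both in 8 and neither in 11 of the peaks with a run. A run on a fixed strand to 1 side of the summit was thus a feature of most OPC-only peaks without either mark.

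**Figure D1:**
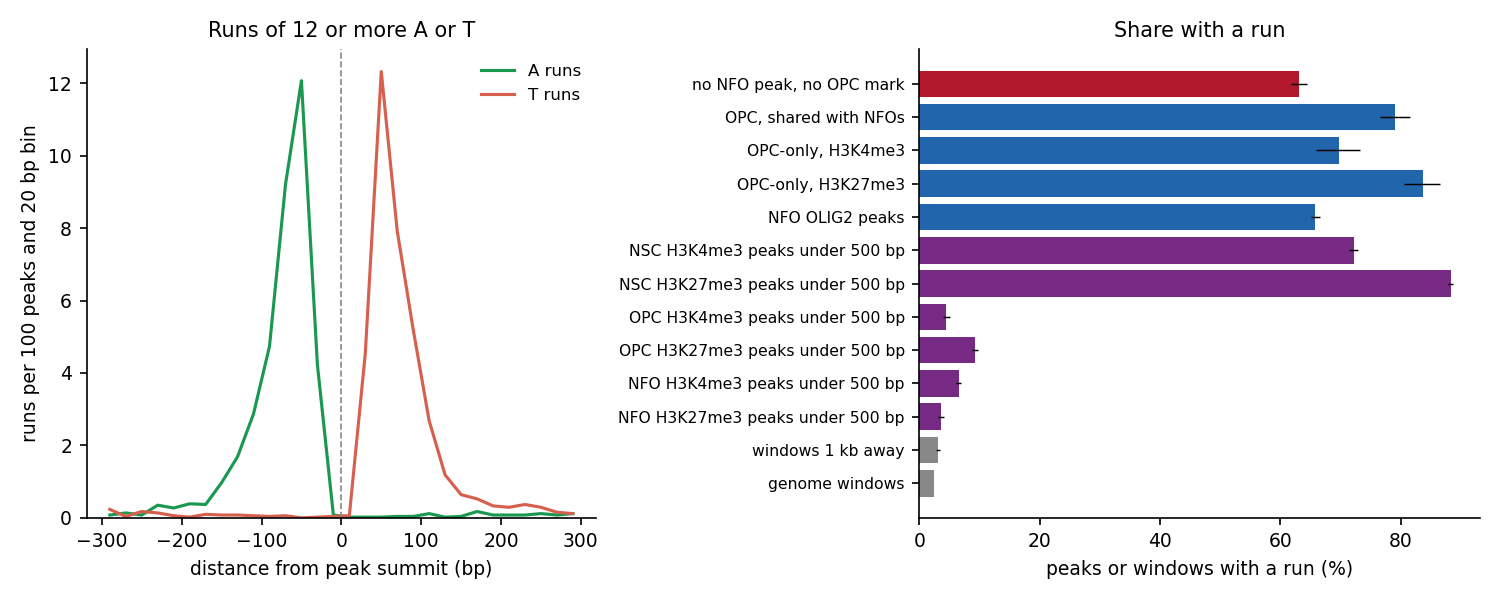
Left, runs of 12 or more A and of 12 or more T per 100 OPC-only peaks without either mark in bins of 20 bp, against the distance from the summit in bp. Right, percent of peaks or windows that hold a run in each list. A runs sit before the summit and T runs after it, and 63.2% of the peaks hold a run against 3.12% of windows 1 kb away.

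The same runs were present in peaks that the rule set aside, at 79.1% of peaks shared with NFOs, 69.7% of OPC-only peaks with H3K4me3 and 83.7% of those within H3K27me3, and in 65.8% of all NFO OLIG2 peaks. Among histone peaks under 500 bp wide, they were found in 72.2% of NSC H3K4me3 and 88.3% of NSC H3K27me3 peaks, but in 4.49% and 9.23% of the OPC lists and 6.54% and 3.55% of the NFO lists. Windows 5 kb from these histone peaks held a run in 3.10 to 4.0%. The study's methods name, for the OLIG2 libraries, a library kit whose chemistry, as background, adds a homopolymer tail to single-stranded DNA and primes on it. The part of the kit in these runs was not tested. The main results are therefore given for all 5154 peaks and for the 1899 without a run, a division made after seeing the data. Gaps to excluded peaks and the density of peaks in gene lists are given for all peaks alone.

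The peaks were of modest enrichment. Fold enrichment ranged from 2.04 to 81.7 with a median of 7.70 (quartiles 5.99 and 10.3), against a median of 10.1 in peaks shared with NFOs, and 84 peaks (1.63%) exceeded 20 against 17.1% of shared peaks. The 1899 peaks without a run had a median of 7.85 and those with a run 7.63. The study's methods kept OLIG2 peaks above 5-fold, which 4554 of the 5154 (88.4%) exceeded, against 88.9% of all listed OPC OLIG2 peaks. The lists were used as deposited, so weaker peaks are counted and named here like the others. Nearly all peaks, 5146, were 230 bp wide, and the 8 narrower ones had a median fold enrichment of 40.5. The false discovery rate did not rank the peaks, because 5009 of them shared the highest value listed. GC content had a median of 42.2% (45.2% without a run), and shared peaks 45.2%.

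The peaks lay mainly in introns and between genes. Introns held 2186 peaks (42.4%, interval 41.1 to 43.8%), distal intergenic sequence 1821 (35.3%, 34.0 to 36.7%), the zone 1 to 3 kb from a TSS 602 (11.7%), the zone within 1 kb of a TSS 388 (7.53%, 6.82 to 8.28%), exons 134 (2.60%) and the 300 bp downstream of genes 23 (0.446%). With 1 TSS per gene in place of the TSSs of all transcripts, 3.45% lay within 1 kb. The 1899 peaks without a run had 40.3% in introns, 37.7% in distal intergenic sequence and 8.32% within 1 kb of a TSS. Peaks shared with NFOs lay within 1 kb of a TSS in 25.9% and in distal intergenic sequence in 27.2%. Since H3K4me3 sits at start sites, excluding it lowers the share near a TSS by the rule itself. Genome windows that passed the same rule lay within 1 kb of a TSS in 4.89%, in introns in 35.1% and in distal intergenic sequence in 49.7%, without allowance for mappability. The median distance to the nearest protein-coding TSS was 21394 bp, 34.0% of peaks were within 10 kb of such a TSS, and 1126 (21.8%) were more than 100 kb away. Without a run these values were 22707 bp, 33.1% and 22.6%. Peaks fell on both sides of the nearest TSS, with 48.9% upstream. Density on autosomes ranged from 1.78 peaks per Mb on chromosome 14 to 2.74 on chromosome 11.

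**Figure D2:**
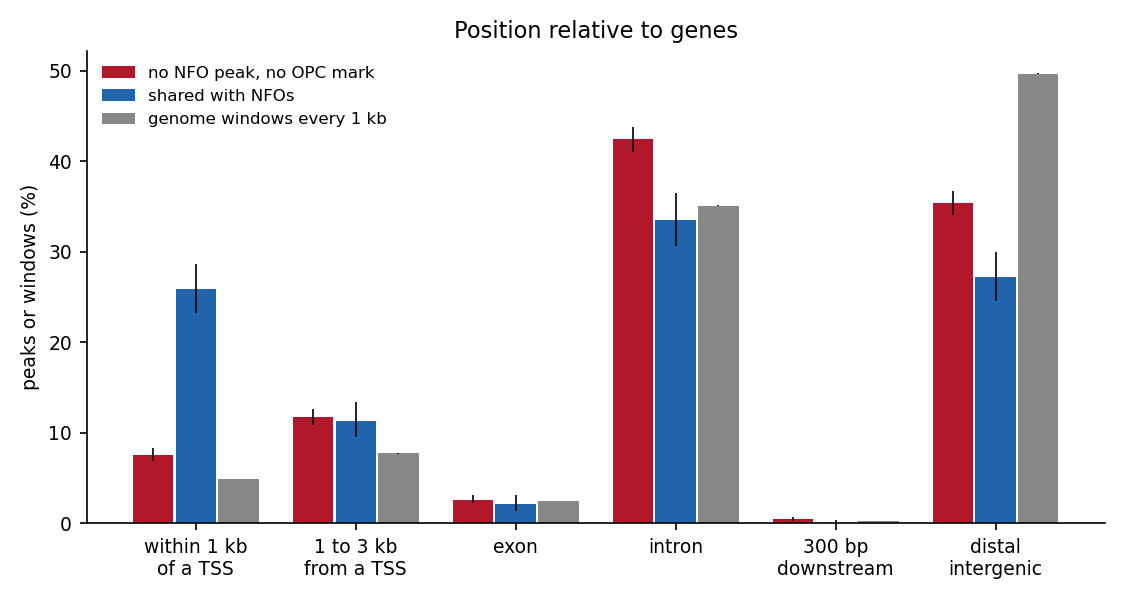
Percent of peaks in each position class for OPC-only peaks without either mark, peaks shared with NFOs and genome windows taken every 1 kb that pass the same rule, with 95% exact binomial intervals. Introns (42.4%) and distal intergenic sequence (35.3%) hold most OPC-only peaks without either mark, and 7.53% lie within 1 kb of a TSS.

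The median gap to the nearest peak of any list that the rule excluded was 13744 bp, and 2126 peaks (41.2%) lay within 10 kb of such a peak. By list, the median gap was 40694 bp to an NFO OLIG2 peak, 38820 bp to OPC H3K4me3 and 51203 bp to OPC H3K27me3, and 298 peaks (5.78%) lay within 1 kb of any of them. At the edge of the rule, the peaks near Zfp709 (fold enrichment 5.55), Tsku (25.1) and Gm42307 (6.26) were included with gaps of 0, 5 and 6 bp. The peaks near Zc3hc1 (5.19), Gm31592 (7.38) and Gm33240 (8.23) overlapped OPC H3K27me3 by 2, 5 and 6 bp and were excluded.

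E-boxes of the CAGCTG form were more frequent in stronger peaks and close to the summit. Any CANNTG was present in 71.4% of the peaks, 71.9% of the windows 1 kb away and 72.3% of RefSeq promoters of 300 bases. CAGCTG was present in 616 peaks (11.95%, interval 11.1 to 12.9%) against 9.53% of the windows 1 kb away, 20.9% of peaks shared with NFOs and 16.3% of promoters. In peaks without a run it was present in 16.8% (15.1 to 18.6%) and in those with a run in 9.12% (8.16 to 10.2%), a share within the interval of the windows. Among the peaks with no soft-masked base, which marks repeats, it was in 27.8%, against 13.2% of such windows. CAGATG, read with its other-strand form CATCTG, was present in 19.4% (23.1% without a run, 17.2% with a run, 18.1% in windows). CATATG was at 6.54% against 6.55% in windows.

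With rising fold enrichment, CAGCTG became more frequent in peaks without a run, from 10.1% of 178 peaks up to 5-fold, through 14.1% of 1238 and 24.7% of 442, to 43.9% of 41 peaks above 20-fold (interval 28.5 to 60.3%). In peaks with a run the same bands gave 7.58, 8.87, 9.53 and 27.9%. In peaks shared with NFOs they gave 12.2, 16.0, 24.4 and 29.8%. GC content rose along the same bands without a run, with medians of 44.8, 44.8, 46.5 and 51.7%, and its part in the rise was not tested. CAGCTG also stood at the summit. Its density within 40 bp of the summit of peaks without a run was 0.974 per kb against 0.479 per kb at 300 to 500 bp, a ratio of 2.03, and CAGATG had a ratio of 1.66. CATATG had a ratio of 0.890. Over all 5154 peaks the ratios for CAGCTG and CAGATG were 1.52 and 1.29.

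**Figure D3:**
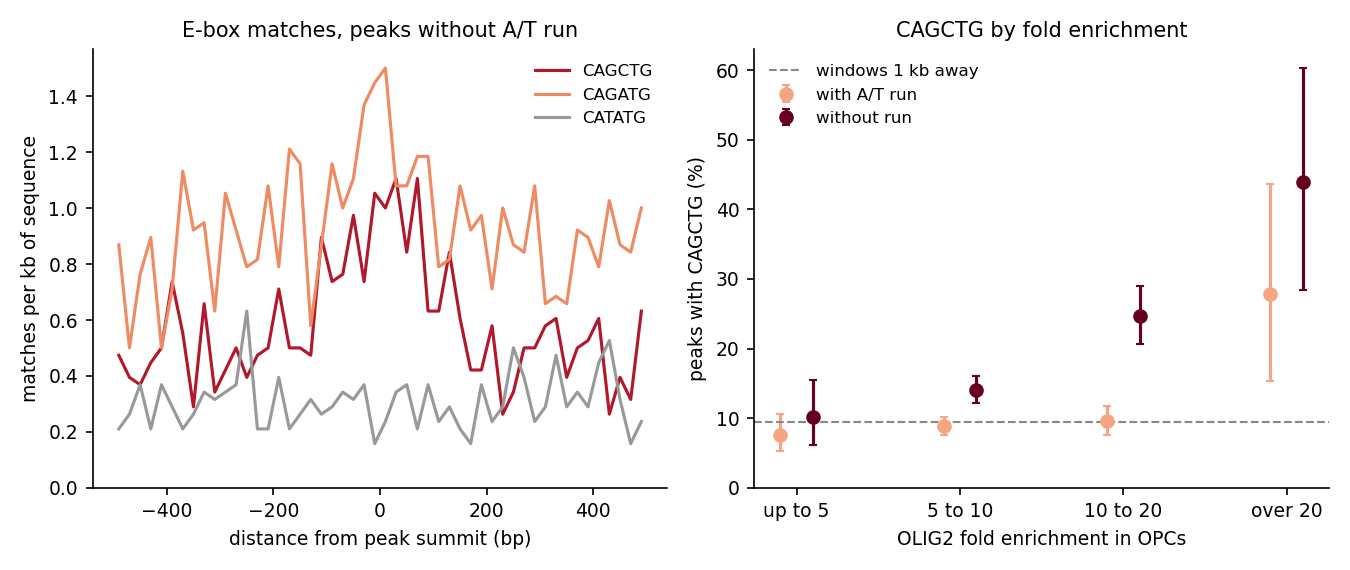
Left, matches of E-box forms per kb against the distance from the summit in bp, for the 1899 peaks without a run. Right, percent of peaks with CAGCTG in 4 bands of fold enrichment, with and without a run, with the share in windows 1 kb away as a dashed line. CAGCTG peaks at the summit (ratio 2.03 to the outer windows) and rises to 43.9% of the strongest peaks without a run.

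Of the motifs of other factor families, the SOX motif ACAAAG was present in 20.2% of peaks (21.4% without a run) against 20.5% of windows, and the AP-1 motif TGACTCA in 4.09% (4.002% without a run) against 4.06%. TTGGC, bound by nuclear factor I proteins, was in 31.4% of peaks against 31.6% of windows, and in 35.8% of peaks without a run (interval 33.6 to 38.0%), whose median GC content was 45.2% against 42.2% over all the peaks. CTCF, the insulator protein, had a motif in 19 peaks (0.369%, interval 0.222 to 0.575%) against 0.107% of windows (0.0533 to 0.191%). Over all listed OPC OLIG2 peaks the share was 0.623%. The motif was in 0.316% of peaks without a run (0.116 to 0.686%), an interval that overlapped that of the windows. It was in 1.89% of peaks shared with NFOs. All motifs were searched on both strands, and a match is a description of the letters, not a binding site.

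Some of the peaks overlapped histone marks of another stage, though they had neither mark in OPCs. H3K4me3 of NSCs overlapped 488 (9.47%, interval 8.68 to 10.3%), H3K27me3 of NSCs 675 (13.1%), H3K4me3 of NFOs 98 (1.90%) and H3K27me3 of NFOs 10 (0.194%), and 4085 (79.3%) overlapped none of these. In peaks without a run the shares were 5.42, 4.11, 1.32 and 0.158%, and in peaks with a run 11.8, 18.3, 2.24 and 0.215%. Overlap with the NSC marks was higher in peaks with a run than in those without, and the NSC lists held runs themselves in 72.2 and 88.3% of their peaks under 500 bp. The part of the runs in this overlap was not tested. Genome windows passing the rule overlapped these 4 lists in 0.767, 0.929, 0.182 and 0.227%, again without allowance for mappability. The overlapping NSC H3K4me3 peaks had a median width of 289 bp and NSC H3K27me3 peaks 375 bp. The lists were used as deposited, and many of the mark peaks were weak. Mark peaks above the methods' fold cut-off of 3.5 made up 347 of the 488 NSC H3K4me3 overlaps and 360 of the 675 NSC H3K27me3 overlaps. For NFOs they made up 41 of the 98 H3K4me3 overlaps and 5 of the 10 H3K27me3 overlaps. Peaks shared with NFOs overlapped NSC H3K4me3 in 39.8% and NFO H3K4me3 in 30.8%.

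**Figure D4:**
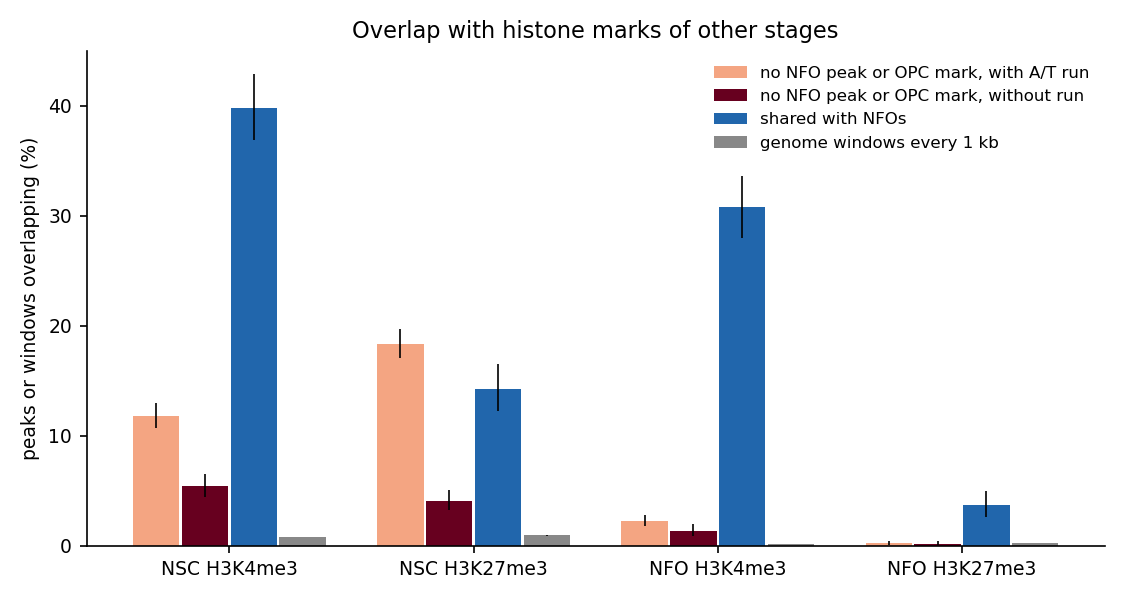
Percent of peaks overlapping the H3K4me3 and H3K27me3 peaks of NSCs and NFOs, for OPC-only peaks without either mark with and without a run, peaks shared with NFOs and genome windows passing the rule, with 95% exact binomial intervals. Overlap with NSC H3K27me3 is 18.3% with a run and 4.11% without.

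Taldo1 (fold enrichment 36.5) and Myo10 (33.6), which encodes an unconventional myosin of filopodia, had peaks that overlapped NSC H3K4me3 and held no run. The Frem1 peak (70.8) overlapped NFO H3K4me3 and held a run of 16 bases. The overlapped mark peaks had folds of 3.46 at Taldo1 and 3.28 at Frem1, both below the cut-off of 3.5, and 7.09 at Myo10.

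Target genes were counted as genes with a peak in the body or within 5 kb upstream of the TSS. The OPC-only peaks without either mark had 3359 target genes of 42507, among them 2463 of 21938 protein-coding genes (11.2%) and 896 lncRNA genes (4.36% of those annotated). Of the 5154 peaks, 3390 lay in the window of at least 1 gene and 1764 in none. With the peaks without a run alone there were 1331 target genes, 998 of them protein-coding (4.55%). Most target genes had a single peak: 2889 had 1, 349 had 2 and 121 had 3 or more, of which 117 were protein-coding (0.533%). An NFO OLIG2 peak lay elsewhere in the window of 1617 target genes (48.1%, interval 46.4 to 49.8%), (49.0% for targets of peaks without a run), and of 56.1% of the protein-coding ones, against 28.2% of all protein-coding genes. Since the rule used the NFO list, these counts are given as a description. The windows of the protein-coding targets had a median length of 76.3 kb against 22.4 kb over all protein-coding genes. The part of window length in the difference was not tested.

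Longer genes were targets more often. Targets made up 2.21% of protein-coding genes under 10 kb, 7.26% at 10 to 30 kb, 16.2% at 30 to 100 kb, 33.0% at 100 to 300 kb and 60.7% above 300 kb (0.772, 2.43, 6.17, 14.7 and 31.4% with peaks without a run). Peaks per 100 kb of window were 0.230, 0.332, 0.307, 0.259 and 0.186 in these bands, lowest in the longest genes. For peaks without a run they were 0.0788, 0.106, 0.109, 0.0974 and 0.0668. Most targets carried H3K4me3 at their own TSS in OPCs: 85.1% of protein-coding targets against 60.8% of all protein-coding genes, 85.4% for targets of peaks without a run, and 96.6% of the 117 genes with 3 or more peaks. The difference was present at each length, from 64.5% against 39.0% of other genes below 10 kb to 95.1% against 87.4% above 300 kb. At the same TSSs both marks were listed for 17.7% of the targets against 11.2% of all protein-coding genes, and for 32.5% of the genes with 3 or more peaks, while H3K27me3 without H3K4me3 was listed for 2.72% of the targets against 5.17%. The difference in both marks was not present at each length. From the shortest to the longest band, targets had both marks in 1.74, 7.84, 14.2, 23.9 and 36.0%. Other genes had them in 6.71, 9.60, 13.4, 22.6 and 27.8%.

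**Figure D5:**
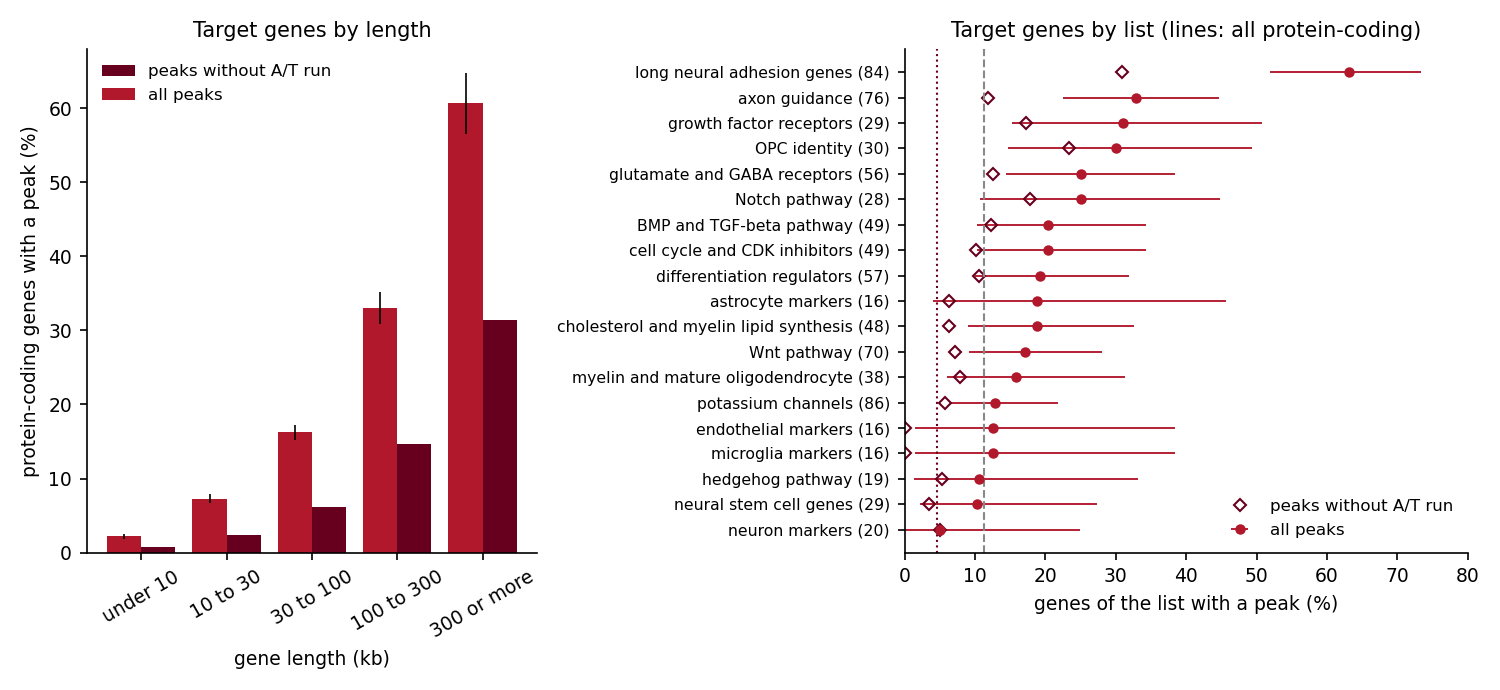
Left, percent of protein-coding genes in each length band that were targets of OPC-only peaks without either mark, for all peaks and for those without a run. Right, percent of each gene list that were targets with 95% exact binomial intervals (diamonds, peaks without a run; lines, all protein-coding genes, 11.2 and 4.55%). Targets rise from 2.21% below 10 kb to 60.7% above 300 kb.

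The genes with the most peaks were long or joined gene models. Gm20388 had 15 (4 without a run) over 4435 kb and Fgfr2 10 (2 without a run) over 2961 kb, and both are GENCODE models that run through several neighbouring genes. In RefSeq, Fgfr2, the fibroblast growth factor receptor gene, spans 104 kb and held 0 of the peaks. Nav2, a neuron navigator gene, had 6 with folds from 2.30 to 17.9 (3 without a run). Fam189a1 also had 6 (2 without a run), with folds of 10.3, 7.85, 13.7, 3.61, 13.5 and 7.39. Ctnna3, an adherens junction catenin, had 6 (2 without a run), Wwox, an oxidoreductase, 6 (0 without a run), and Gm37240, a GENCODE model of 1391 kb, 5 (3 without a run). The cell-adhesion genes Ptprd (1 without a run), Lsamp (2) and Ptprg (2) had 5 each. In all, 202 of 217 named genes compared had the same number of peaks in RefSeq as in GENCODE, 6 had fewer and 9 had more.

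Among genes with 3 or more peaks, the densest were shorter genes. Snx32, a sorting nexin gene, had 12.9 peaks per 100 kb of window, Phax, an RNA export adaptor, 9.91, Dna2, a helicase-nuclease, 9.33, Cd9, a tetraspanin, 7.59, and Mroh2a 7.44. Smad1 followed at 6.05, and Dag1 (4.66), Bicral (4.59) and Npepps (3.76) came later. Each of these genes had 3 peaks except Smad1 with 4. All 3 peaks of Dna2 and of Dag1, the dystroglycan gene, and all 4 of Smad1 held no run, whereas all 3 of Phax and all 3 of Bicral held a run. The 9 genes with 3 or more peaks without a run were Gm20388, Smad1, Dlgap2, Gm37240, Nav2, Dscam, Dna2, Pde4d and Dag1.

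Smad1, which encodes the transducer of bone morphogenetic protein (BMP) signals, held 4 peaks, none of them with a run. They lay at chr8:79348475-79348704 (fold enrichment 5.85), chr8:79355876-79356105 (12.2), chr8:79356284-79356513 (8.34) and chr8:79381620-79381849 (7.54), at 50928, 43527, 43119 and 17783 bp from the gene start on the minus strand. In the same order, the nearest TSS of any Smad1 transcript lay 1347, 573, 165 and 17669 bp away. An NFO OLIG2 peak lay 2029 bp from the first of these peaks. The strongest held 1 CAGCTG and the others none.

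Groups of 3 or more peaks with gaps of at most 10 kb were few: 6, with 18 peaks (0.349% of the 5154), and the median distance between neighbouring peaks was 284 kb. They lay at Agap1 (chr1:89848187-89857402, folds 2.04 to 13.9, 1 of 3 without a run), Smad1 (chr8:79348475-79356513, 5.85 to 12.2, 3 of 3), Ankrd65 and Mrpl20 (chr4:155793380-155802578, 6.32 to 12.1, 2 of 3), Orai1 (chr5:123023726-123030933, 5.21 to 9.68, 0 of 3), Map3k3 (chr11:106138282-106155702, 4.90 to 7.84, 1 of 3) and Arhgap22 (chr14:33307505-33312822, 5.40 to 6.86, 2 of 3). Orai1 is a calcium channel gene and Map3k3 a kinase gene. With peaks without a run alone, 1 such group was left, that at Smad1. Gaps of at most 5 kb gave 1 group and gaps of at most 25 kb gave 30.

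Each gene list below stands beside all protein-coding genes, of which 11.2% were targets (4.55% with peaks without a run). Among OPC identity genes, 9 of 30 were targets (7 with peaks without a run), with 0.258 peaks per 100 kb of window, the same density as over all protein-coding genes (0.258). Pcdh15, a protocadherin gene, had 3 peaks with folds of 5.75, 4.50 and 4.30. Ncald had 2 (9.45 and 8.44, the second without a run and with 3 E-boxes), and Tnr had 2 (8.19 and 4.58, both with a run). Pdgfra had 1 (fold 4.55, in an intron 15287 bp downstream of its start, no run), and Cspg5 1 (9.15, 6139 bp downstream of its start). The Pdgfra peak, the Pcdh15 peaks of 4.50 and 4.30 and the Tnr peak of 4.58 were below the methods' OLIG2 cut-off of 5. Fam19a1, Lhfpl3, Nxph1 and Xylt1 had 1 each, with folds of 9.11, 8.56, 6.81 and 6.00.

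Of myelin and mature oligodendrocyte genes, 6 of 38 were targets (3 without a run): Qdpr (11.7), Ugt8a (11.03), the enzyme that makes galactocerebroside, Enpp2 (10.6), Nfasc (6.30), Pllp (6.17) and Fyn (4.63). The Fyn peak, below the methods' OLIG2 cut-off of 5, lay 111 bp from an NFO OLIG2 peak. Of differentiation regulators, 11 of 57 were targets (6 without a run) at 0.217 peaks per 100 kb. The shares were 15.8% of the myelin list and 19.3% of the regulators, beside 11.2% of all protein-coding genes. Myt1l had 4 with folds of 7.70, 26.5, 17.5 and 7.09, all with a run. The peak with a fold of 26.5 lay 25 bp from an NFO OLIG2 peak and overlapped NSC H3K4me3. Tcf7l2, an effector of Wnt signalling that promotes differentiation, had 2 (6.34 and 12.5, neither with a run). The others were Tcf4 (2, 9.72 and 5.07), Zbtb20 (16.1), St18 (10.5), Etv1 (8.32), Sox6 (7.37), Sox5 (6.68), Nfia (6.65), Smarca4 (6.65) and Nfib (6.18).

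In the list of Notch pathway genes, which hold OPCs in the precursor state, 7 of 28 genes were targets (5 without a run, 0.554 per 100 kb): the coactivator Maml3 with 3 (10.9, 9.56 and 2.90), Dner with 3 (10.6, 8.81 and 9.22), Numb, which inhibits Notch, with 2 (5.99 and 5.72), Dtx4 (13.7), the ligand Dll3 (9.29), Mfng (7.16) and the receptor Notch2 (6.23). In the Wnt list 12 of 70 were targets (5 without a run, 0.283 per 100 kb), with 2 peaks at Tcf7l2 and 1 each at Dvl3 (13.7), Rspo3 (12.9) and Sfrp2 (12.2). In the hedgehog list 2 of 19 were targets (1 without a run): Ptch1, the receptor, with 2 (7.27 and 10.4, neither with a run), and Gli3 (7.57). In the BMP and TGF-β list 10 of 49 were targets (6 without a run, 0.387 per 100 kb), with Smad1 above, Ski (14.96), Smad7 (13.8) and the receptor Bmpr1a (8.13) among them.

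In the growth factor receptor list 9 of 29 were targets (5 without a run), with Alk having 3 (5.71, 8.26 and 7.01, all with a run), and Erbb4 (11.2), Igf1r (9.48), Ntrk2 (6.86) and Egfr (6.60) 1 each. Fgfr2 counts only through its GENCODE model. Among long neural adhesion genes 53 of 84 were targets (26 without a run), a share of 63.1%. Their median length was 612 kb, and 60.7% of all protein-coding genes above 300 kb were targets. Their density was 0.174 per 100 kb against 0.186 in that band. Dscaml1 had 4 (4.77, 16.0, 31.8 and 11.2, the first and second without a run), Ncam1 2 (5.58 and 31.7), and Cdh4 3 (8.49, 22.6 and 11.5). In the axon guidance list 25 of 76 were targets (9 without a run), with Plxnc1 at 3 (7.10, 10.4 and 8.78), Ntng2 at 2 (11.7 and 8.02, neither with a run) and Ephb1 at 20.7.

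In the list of glutamate and GABA receptor genes and their scaffolds 14 of 56 were targets (7 without a run, 0.131 per 100 kb). Of these, the postsynaptic scaffold genes Dlg2 and Dlgap2 had 4 and 3 (strongest of Dlgap2 20.5, all 3 without a run), and the receptor gene Grin3a had 1 (13.7). Of potassium channel genes 11 of 86 were targets (5 without a run, 0.140 per 100 kb), and Kcnd2 had 2, the stronger at 15.9. Of cell cycle genes 10 of 49 were targets (5 without a run, 0.673 per 100 kb), with Rb1 (15.6), Cdk6 (9.59) and Mcm7 (9.39) the strongest and Myc at 8.66, 4715 bp upstream of its start. The Mcm7 peak lay 2993 bp upstream of Mcm7 but 514 bp from a TSS of Ap4m1. The TSS nearest the Myc peak was that of Gm37947, at 2512 bp. Of cholesterol and myelin lipid genes 9 of 48 were targets (3 without a run, 0.701 per 100 kb). Elovl6, a fatty acid elongase, had 4 (6.78, 13.1, 17.7 and 6.57, all with a run), Acaca 3 (strongest 6.84) and Cers6 2 (17.5).

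Against the 11.2% of all protein-coding genes, the marker lists of other cell types held as targets 1 of 20 neuron genes (Rbfox3, 9.77), 3 of 16 astrocyte genes (the glutamate transporter Slc1a2 at 22.9, Mlc1 at 9.25 and Aqp4 at 9.002), 2 of 16 microglia genes (Itgam, 8.49, and Cx3cr1, 4.43, in a GENCODE model of 168 kb whose RefSeq counterpart held 0), 2 of 16 endothelial genes (Cdh5, 11.8, and Flt1, 9.58) and 3 of 29 neural stem cell genes (Msi2, Gli3 and Egfr). The astrocyte share was 18.8% (interval 4.05 to 45.6%), beside 19.3% of the differentiation regulators and 15.8% of the myelin genes. The Cx3cr1 peak was also below the methods' OLIG2 cut-off of 5. Without the peaks with a run, the microglia and endothelial lists held 0 targets and the astrocyte list 1. A list of 23 genes named in the publication held 7 targets (4 without a run). Some of its lncRNA genes were chosen for OLIG2 peaks in these same libraries, so nothing is read from this count. The list does not hold every gene that the publication names. Pcdh15, Ptprk, Ugt8a and Cadm2, for example, are named there, were targets and were left out of it. The targets of the list were Myc, the TGF-β transducer Smad3 (5.39) and the lncRNA genes Gm34923 (AC140285.1 in the publication, 11.7, 615 bp upstream of its start, with a run), Mir99ahg (2 peaks, 7.49 and 8.54), Sox2ot (8.33), B230311B06Rik (6.15) and Pantr1 (5.97, no run). The shorter RefSeq models of Sox2ot and Pantr1 held 0 peaks, and that of Mir99ahg held 1.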

How the data were processed

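OLIG2 ChIP-Seq of OPCs and NFOs and H3K4me3 and H3K27me3 ChIP-Seq of NSCs, OPCs and NFOs were analysed as 8 deposited peak lists, 1 per library. Input DNA, RIP-Seq and NSC OLIG2 data were not used here. Per the methods and labels, the authors made the OLIG2 libraries with a low-cell ChIP kit and the DNA SMART ChIP-Seq Kit, aligned uniquely mapping reads to mm10 by Bowtie2, used SPP for OLIG2 peaks and MACS2 in broad mode for histone peaks, and dropped blacklisted regions. In the deposited lists the authors' callers report each peak's enrichment as a fold (a ratio of ChIP to control), beside a −log10 false discovery rate and, for the histone lists, a −log10 p-value. Peak lists carry no read counts, so depth is unknown. Samples were grouped by title.

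Overlaps of 1 bp were taken between peaks as listed. Genes came from GENCODE release M21 with lncRNAs added from RefSeq (42507 genes, GRCm38), and sequences from the same build. The position class followed the nearest TSS of any transcript. A target gene had a peak in its body or within 5 kb upstream. The lists named in the text and the peaks studied were chosen with earlier results of these data known. Named genes were those nearest the 10 strongest peaks, the 10 with the most peaks and with the most peaks per 100 kb, those at the largest groups, and list genes with 2 or more peaks or among the 3 strongest of their list. Myo10, the remaining list genes with 1 peak, the genes with 3 or more peaks without a run and the peaks at the edge of the rule were named after their values were seen. The capitals for A and T runs and the split by runs were also added after seeing the data. A few items that these rules select are not reported here. Steps were tested on simulated data. Python 3.11.15, pandas 2.3.3 and SciPy 1.17.1 were used.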

Additional observations from a re-analysis of the deposited data

How the results depend on the processing

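Leaving out the peaks with a run (an alternative chosen after seeing the data) left 1899 of 5154 peaks, 8.32% within 1 kb of a TSS (7.53% for all peaks), 37.7% in distal intergenic sequence (35.3%), 1331 target genes (3359), 9 genes with 3 or more peaks (121), 1 group (6), CAGCTG in 16.8% (11.95%), overlaps of 5.42, 4.11 and 1.32% with NSC H3K4me3, NSC H3K27me3 and NFO H3K4me3 (9.47, 13.1 and 1.90%), and 100 list targets (206). Peaks above 10-fold numbered 1355, with 33.7% distal, 992 target genes, 5 genes with 3 or more peaks, 0 groups, CAGCTG in 16.1%, overlaps of 11.1, 12 and 2.95%, an NFO OLIG2 peak elsewhere at 50.6% of targets (48.1%) and 69 list targets. With 1 TSS per gene 3.45% lay within 1 kb, and with protein-coding genes alone 5.04% within 1 kb, 45.1% distal and 56.1% with an NFO peak elsewhere. The filter of the methods (fold above 5 for OLIG2 peaks and above 3.5 for histone peaks, false discovery rate below 0.05) gave an NFO peak elsewhere at 43.7% of all target genes (48.1%). Gaps of 25 kb and 5 kb gave 30 groups and 1. CAGCTG was in 6.17% of the central 100 bp and 27.8% of peaks with no soft-masked base. A gap of at least 1 kb to the excluded lists gave 8.42% for NSC H3K4me3 and 1.5% for NFO H3K4me3. The cause of these changes was not tested, beyond the fewer peaks or narrower windows each setting holds. No paired analysis was possible because no result comes from a test and each condition has 1 library. The number of peaks per list limits the precision, and depth was unknown.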
